A study of Mus musculus with 12 samples.

Results

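The desmosome genes described here are Dsg1a, Dsg2, Dsg3, Dsc1, Dsc2, Dsc3, Pkp1, Pkp3, Jup and Dsp, chosen by symbol because their proteins build the desmosome of the epidermis. All 10 were found among the 23282 entries of the count files, and all 10 were among the 14163 genes that passed the filter on low counts. Between 173 and 34454 reads per mouse were counted on each of them. RNA of whole skin was sequenced from 12 wild-type male C57BL/6J mice that were 5 weeks old at the start, with 1 library per mouse. AD-like lesions were induced in all 12, controls of this comparison included, by DNCB (2,4-dinitrochlorobenzene, a small molecule that provokes allergic contact inflammation) at 0.5% on the dorsal skin for 6 weeks. The 5 AD mice ate normal chow. The 7 mice labelled AD+OB are called HF + AD here, after the study, in which obesity was induced by a high-fat diet with 60 kcal% fat that began 4 weeks before DNCB and ran for 10 weeks in all. The labels do not state the diet of each mouse. The deposited files also number the groups 2 and 4, and in the study's list of groups the place of 4 belongs to an arm that received an agent named GHJGS on top of the high-fat diet and DNCB. The label was followed, and whether these 7 mice received GHJGS cannot be settled from the sources used here, so that every difference below is one between mice labelled AD and mice labelled AD+OB. Mice without DNCB were not analysed here, and no value below measures the effect of DNCB itself.

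Desmosomes fasten neighbouring keratinocytes to each other and give the epidermis its resistance to mechanical stress. Desmogleins and desmocollins are cadherins that span the membrane and bind the cadherins of the next cell, plakoglobin and the plakophilins gather on their cytoplasmic tails, and desmoplakin ties this plaque to the keratin filaments. The isoforms are layered in the epidermis, with Dsg1 and Dsc1 most abundant in the upper layers and Dsg3 and Dsc3 in the lower ones, and autoantibodies against desmogleins cause the blistering disease pemphigus.

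The reads counted per mouse numbered 9746937 to 11688979 in the AD group and 10726845 to 13462434 in the HF + AD group. At least 1 read was found on 13100 to 15063 genes in the AD mice and on 15522 to 16677 genes in the HF + AD mice, so that the groups did not overlap in the number of genes detected. Across genes, which are no independent replicates, the median Pearson's r between 2 libraries was 0.846 for AD pairs and 0.946 for HF + AD pairs. The part of these differences between libraries in the results was not tested. Levels are given in CPM (counts scaled to a common library total by TMM). Only the 3′ end of each mRNA was read and CPM is not divided by length, so that levels are compared between mice and not between genes.

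Of the 10 desmosome genes, 3 had a higher level in the HF + AD mice at an adjusted p under 0.05 in edgeR's quasi-likelihood test. These were Pkp3, a plakophilin of all epidermal layers (1.74-fold), Dsp, the desmoplakin gene (1.69-fold), and Dsc3, a desmocollin of the lower layers (1.64-fold). None of the 10 was called lower, and Dsg1a and Dsg3 had the only negative log2 fold changes. At an unadjusted p under 0.05, edgeR gave the same 3 members and no others. The share of all genes at that unadjusted p was not determined, and the shares below are for the adjusted p. The members had been chosen with earlier results of these data known, so that the shares that follow are descriptive and were not tested. The share of members called higher was 30%, whereas 4.43% of all genes tested were called higher, 4.77% were called lower and 9.20% were called in either direction. That balance of 627 genes higher and 676 lower became 744 and 515 on library totals alone and 453 and 842 with a correction for GC content, added after seeing the data. The median log2 fold change was 0.33 over the members and 0.02 over all genes tested. In whole skin, fewer cells of a type and less RNA per cell cannot be told apart, and this holds for every difference below.

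**Figure D1:**
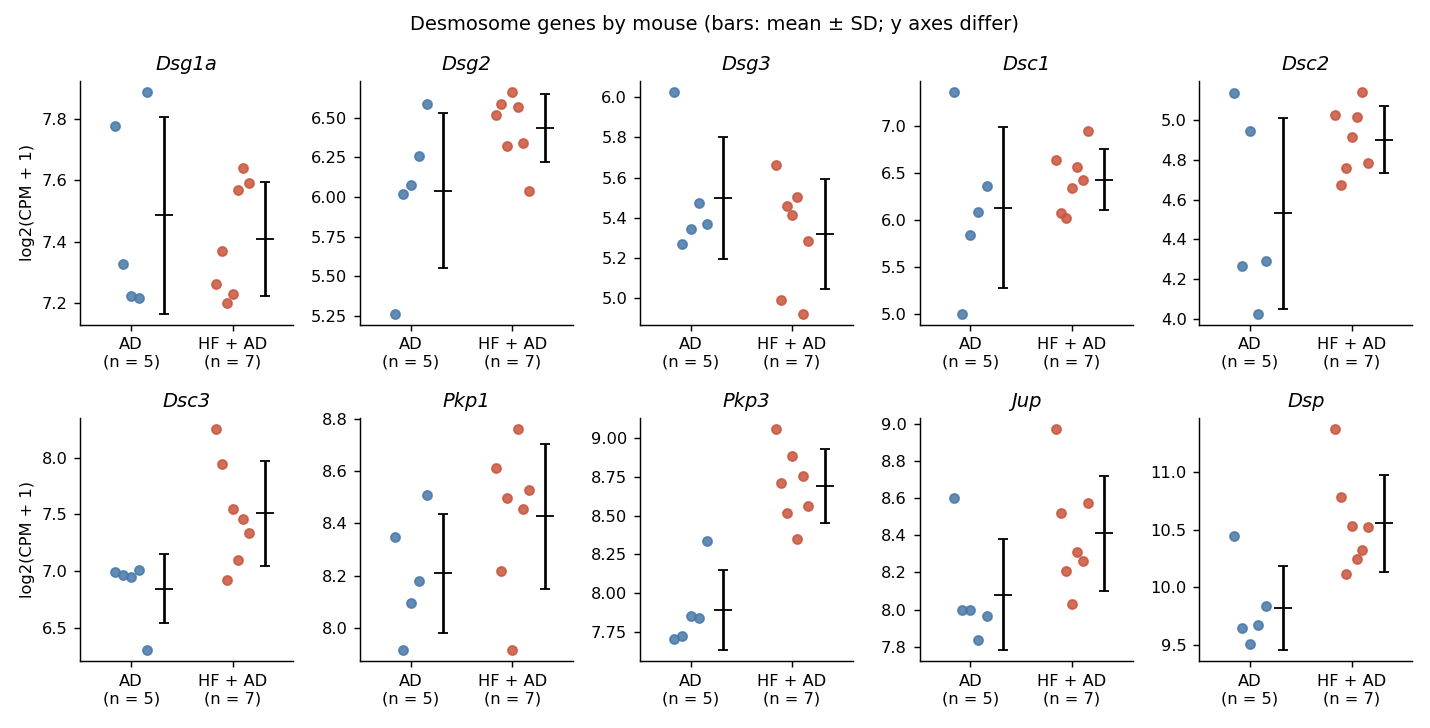
Level of each desmosome gene in each mouse, as log2(CPM + 1) on the vertical axis, for the 5 AD mice (blue) and the 7 HF + AD mice (red), with the mean ± SD beside the points. For Pkp3 alone among the 10 genes, all 7 HF + AD mice lie above all 5 AD mice.

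The desmogleins did not pass the test in either direction. Dsg1a, the desmoglein of the upper epidermis, stood at 218, 159, 148, 148 and 236 CPM in AD mice 1 to 5, and at 146 CPM in the lowest, 164 CPM in the median and 198 CPM in the highest HF + AD mouse. All but 1 of the HF + AD mice fell within the range of the AD mice. Log2(CPM + 1) averaged 7.49 ± 0.32 (SD, n = 5) for AD against 7.41 ± 0.19 (SD, n = 7) for HF + AD, with an exact permutation p of 0.600, and edgeR gave a log2 fold change of -0.10 (SE 0.15, adjusted p = 0.741). Without AD mouse 5 the log2 fold change was 0.03, with edgeR adjusted p = 0.935. Dsg1a lies in a row of near-identical genes with Dsg1b and Dsg1c, so that the division of reads among these copies is uncertain.

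Dsg2, a desmoglein of the deep epidermis and the hair follicle, measured 37.5, 63.8, 66.5, 75.5 and 95.1 CPM in AD mice 1 to 5, against 64.8 CPM in the lowest, 90.7 CPM in the median and 100 CPM in the highest HF + AD mouse. The groups overlapped, since only 1 of the 7 HF + AD values exceeded every AD value, and AD mouse 1 was the lowest of the 12. Its log2 fold change was 0.35 (SE 0.19, edgeR adjusted p = 0.270), and the exact permutation p of the means was 0.0593.

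Dsg3, the desmoglein of the lower layers and the main target of antibodies in pemphigus vulgaris, had 64.2, 37.6, 39.6, 43.4 and 40.4 CPM in AD mice 1 to 5. The HF + AD mice had 29.3 CPM at the lowest, 41.6 CPM at the median and 49.6 CPM at the highest. AD mouse 1 stood above all other mice, 2 HF + AD mice stood below all AD mice, and the remaining values lay together. Its log2 fold change was -0.19 (SE 0.19, edgeR adjusted p = 0.577), and the exact permutation p was 0.311.

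Among the desmocollins, Dsc3 was called higher and Dsc1 and Dsc2 were not. Dsc3 stood at 126, 124, 122, 128 and 77.9 CPM in AD mice 1 to 5, and at 120 CPM in the lowest, 175 CPM in the median and 305 CPM in the highest HF + AD mouse. In the HF + AD group 6 of 7 values exceeded every AD value, and AD mouse 5 lay well under the other 4. Log2(CPM + 1) averaged 6.84 ± 0.30 (SD, n = 5) for AD against 7.51 ± 0.47 (SD, n = 7) for HF + AD, with an exact permutation p of 0.0177. In edgeR the log2 fold change was 0.71 (SE 0.21, adjusted p = 0.0446). This call was close to the threshold: it was made in 10 of 20 alternative analyses (edgeR, limma or DESeq2 adjusted p from 0.0141 to 0.0963), and of the 12 fits that left out 1 mouse it was made only without AD mouse 1 or without the third or the fifth HF + AD mouse. The log2 fold change stayed between 0.56 and 0.80 in those 12 fits.

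Dsc1, the desmocollin of the upper layers, varied more among the AD mice than any other member. Its levels were 163, 31.2, 56.3, 67.2 and 81.5 CPM in AD mice 1 to 5, and 63.9 CPM in the lowest, 85.2 CPM in the median and 122 CPM in the highest HF + AD mouse. All 7 HF + AD mice lay between the lowest and the highest AD mouse, and the log2 fold change was 0.12 (SE 0.29, edgeR adjusted p = 0.837). Leaving out AD mouse 1 gave 0.56 and leaving out AD mouse 2 gave -0.08, with an edgeR adjusted p of at least 0.130 in all 12 such fits.

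Dsc2, the most widely expressed desmocollin, had 34.2, 18.2, 29.8, 15.3 and 18.6 CPM in AD mice 1 to 5, and 24.5 CPM in the lowest, 29.2 CPM in the median and 34.3 CPM in the highest HF + AD mouse. The AD mice fell into a higher pair (mice 1 and 3) and a lower trio, and all HF + AD mice lay above the lower trio. For Dsc2 the log2 fold change was 0.32 (SE 0.22, edgeR adjusted p = 0.393), with an exact permutation p of 0.0859.

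**Figure D2:**
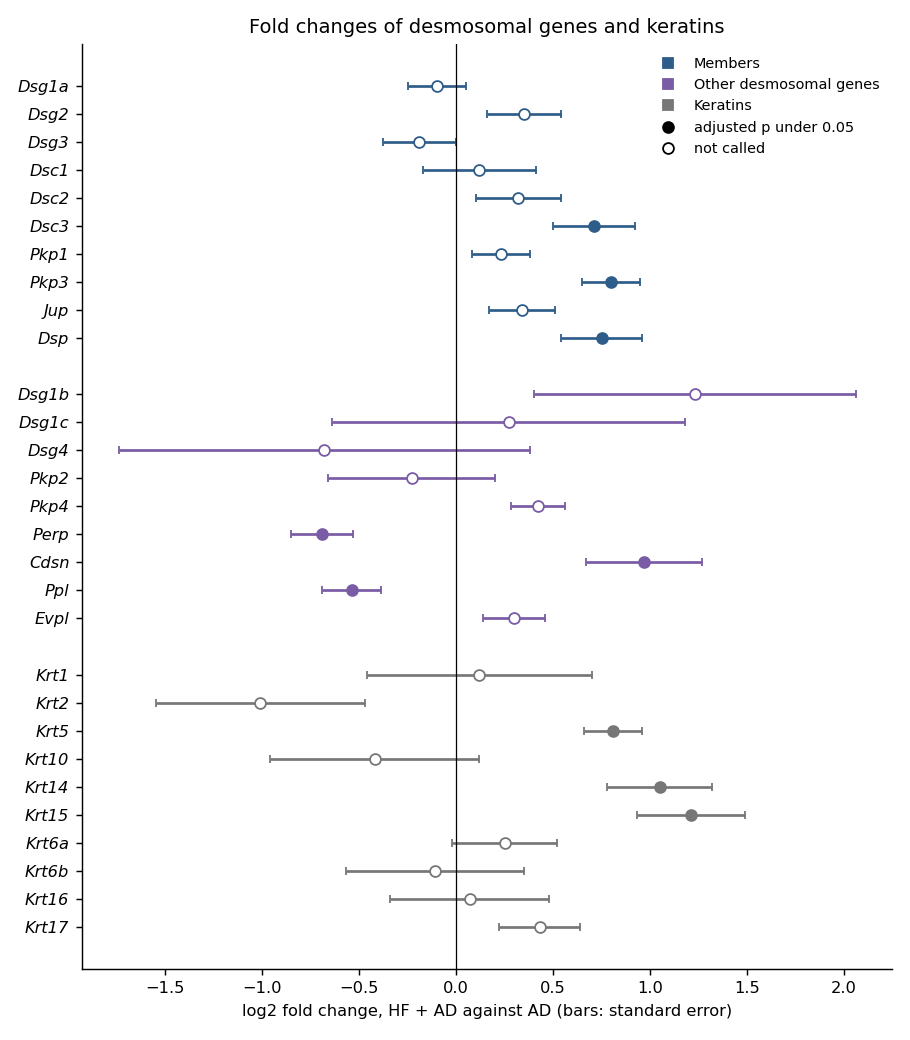
Log2 fold change of HF + AD against AD (horizontal axis, bars show the standard error) for the 10 members, 9 other desmosomal genes and 10 keratins, with filled points for genes at an adjusted p under 0.05. The filled members are Dsc3, Pkp3 and Dsp, all on the right of 0, while Perp and Ppl are filled on the left.

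Pkp3 was the member that differed most clearly. Plakophilins bind the cadherin tails and desmoplakin and cluster them into the plaque, and Pkp3 is found through the whole thickness of the epidermis. Its levels were 207, 210, 230, 228 and 322 CPM in AD mice 1 to 5, and 325 CPM in the lowest, 418 CPM in the median and 532 CPM in the highest HF + AD mouse. The groups did not overlap, although AD mouse 5 came close to the lowest HF + AD mouse. Over all genes tested, such a separation was found in 2.90% with the HF + AD mice on top and in 2.56% with the AD mice on top. The mean log2(CPM + 1) was 7.89 ± 0.26 (SD, n = 5) against 8.69 ± 0.24 (SD, n = 7), and the exact permutation p of 0.00126 was the smallest that 792 splits of the mice allow. The log2 fold change was 0.80 (SE 0.15, edgeR adjusted p = 0.00679), and it lay between 0.73 and 0.94 with edgeR adjusted p of 0.0233 or less whichever mouse was left out.

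Pkp1, the plakophilin of the upper layers whose loss in humans causes skin fragility, had 324, 240, 272, 289 and 363 CPM in AD mice 1 to 5, and 241 CPM in the lowest, 360 CPM in the median and 433 CPM in the highest HF + AD mouse. The groups overlapped over most of their range, with 3 HF + AD values above the AD range. For Pkp1 the log2 fold change was 0.23 (SE 0.15, edgeR adjusted p = 0.378), and the exact permutation p was 0.179.

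Jup encodes plakoglobin, the armadillo protein that links cadherin tails to desmoplakin and that also joins adherens junctions. It measured 388, 254, 254, 228 and 249 CPM in AD mice 1 to 5, and 261 CPM in the lowest, 317 CPM in the median and 502 CPM in the highest HF + AD mouse. All 7 HF + AD mice exceeded AD mice 2 to 5, but AD mouse 1 stood above all but 1 of them. For Jup the log2 fold change was 0.34 (SE 0.17, edgeR adjusted p = 0.235), and the exact permutation p was 0.0985.

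Dsp encodes desmoplakin, the obligate link between the plaque and the keratin filaments. Its levels were 1391, 797, 726, 811 and 914 CPM in AD mice 1 to 5, and 1110 CPM in the lowest, 1465 CPM in the median and 2656 CPM in the highest HF + AD mouse. AD mouse 1 lay inside the range of the HF + AD mice and the other 4 AD mice below it, while 4 of 7 HF + AD values exceeded every AD value. Log2(CPM + 1) averaged 9.82 ± 0.37 (SD, n = 5) for AD against 10.56 ± 0.42 (SD, n = 7) for HF + AD, with an exact permutation p of 0.0114. In edgeR the log2 fold change was 0.75 (SE 0.21, adjusted p = 0.0360). The call was made in 11 of 20 alternative analyses (edgeR, limma or DESeq2 adjusted p from 0.00585 to 0.0840), and of the 12 fits without 1 mouse only when the omitted animal was AD mouse 1 or number 3, 5 or 6 of the HF + AD group.

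RefSeq promoter sequences were at hand for 2 of the 10 members, Dsp and Jup. They are shown because Dsp was called higher and its binding partner Jup was not. Each is the 250 bases before the start used by RefSeq, 5′ to 3′ on the strand of the gene. The Dsp window adjoins the GENCODE start given below (38151294). The Jup window stops at 100397791, short of the GENCODE start (100397763). Capitals mark matches to GGGCGG (GC box) or CCAAT on either strand.
Dsp promoter (GRCm38.p6, chr13:38151044-38151293, plus strand): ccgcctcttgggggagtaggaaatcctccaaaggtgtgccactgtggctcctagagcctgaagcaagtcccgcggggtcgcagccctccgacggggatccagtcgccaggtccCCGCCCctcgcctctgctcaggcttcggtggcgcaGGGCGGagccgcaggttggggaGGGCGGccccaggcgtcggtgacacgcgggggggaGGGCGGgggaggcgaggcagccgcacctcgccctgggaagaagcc
Jup promoter (GRCm38.p6, chr11:100397791-100398040, minus strand): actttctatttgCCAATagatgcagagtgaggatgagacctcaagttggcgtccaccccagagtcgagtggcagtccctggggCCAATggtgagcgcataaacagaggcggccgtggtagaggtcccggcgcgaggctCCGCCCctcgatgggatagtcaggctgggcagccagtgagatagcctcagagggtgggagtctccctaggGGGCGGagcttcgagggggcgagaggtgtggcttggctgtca
The Dsp window held 4 GC boxes and no CCAAT, and the Jup window held 2 GC boxes and 2 CCAAT motifs. Of 32851 promoter windows of the same length, 32.7% held a GC box and 33.8% a CCAAT. Neither window held TGANTCA, a motif of AP-1 found in 6.75% of all promoters. Nor did either hold AACCNGTT, a motif of Grainyhead-like factors found in 1.79% of promoters. The letters TATAAA, found in 12.4% of promoters, were also not in these windows, and every motif was searched on both strands. These matches describe letters only.

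Fold changes varied with the GC content of the transcript. Over all genes tested, the median log2 fold change went from -0.09 in the lowest of 5 equal bins of transcript GC content to 0.18 in the highest. Pkp3 (60.3% GC) and Jup (58.8% GC) belong to the highest bin, and Dsc3 (42.4% GC), Dsg1a, Dsg3, Dsc1 and Dsc2 to the lowest. In the fit that removed each library's trend with GC content, the log2 fold change of Pkp3 was 0.51 (edgeR adjusted p = 0.0181), that of Dsc3 was 0.77 (adjusted p = 0.0322) and that of Dsp was 0.63 (adjusted p = 0.0722). In the same fit Jup was at 0.10 (adjusted p = 0.754) and Pkp1 at 0.08 (adjusted p = 0.766). Dsp (51.8% GC) thereby lost its call, and Pkp3 and Dsc3 retained theirs.

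Genomic positions in GENCODE M21 (GRCm38) place the 3 desmogleins and 3 desmocollins in a cluster on chromosome 18, in which Dsc3 (19960930 to 20002351, minus strand) is the first and Dsg2 (20558074 to 20604521, plus strand) the last. The plaque genes are scattered, with Pkp1 on chromosome 1 (135871395 to 135919207, minus strand), Pkp3 on chromosome 7 (141078218 to 141090510, plus strand), Jup on chromosome 11 (100368958 to 100397763, minus strand) and Dsp on chromosome 13 (38151294 to 38198577, plus strand). Within the cluster only Dsc3 was called, while its neighbours Dsc2 and Dsc1 were not.

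Some mice stood at the end of their group's range for several desmosome genes. AD mouse 1 had the highest level of its group for 5 of the 10 genes (Dsg3, Dsc1, Dsc2, Jup and Dsp), but the lowest for Dsg2 and Pkp3. AD mouse 5 was the highest of its group for 4 others (Dsg1a, Dsg2, Pkp1 and Pkp3) and the lowest for Dsc3. HF + AD mouse 1 was the highest of its group for Dsg3, Dsc3, Pkp3, Jup and Dsp, and HF + AD mouse 3 was the lowest for Dsg1a, Dsc1, Dsc3 and Dsp. Summed over the 10 genes, the level was 1936 to 2954 CPM in the AD mice and 2607 to 4807 CPM in the HF + AD mice, with AD mouse 1 the only AD mouse inside the HF + AD range. Dsp was the largest term of this sum in every mouse, with 1391 of 2954 CPM in AD mouse 1 and 2656 of 4807 CPM in HF + AD mouse 1. The sum therefore follows Dsp more than any other member.

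**Figure D3:**
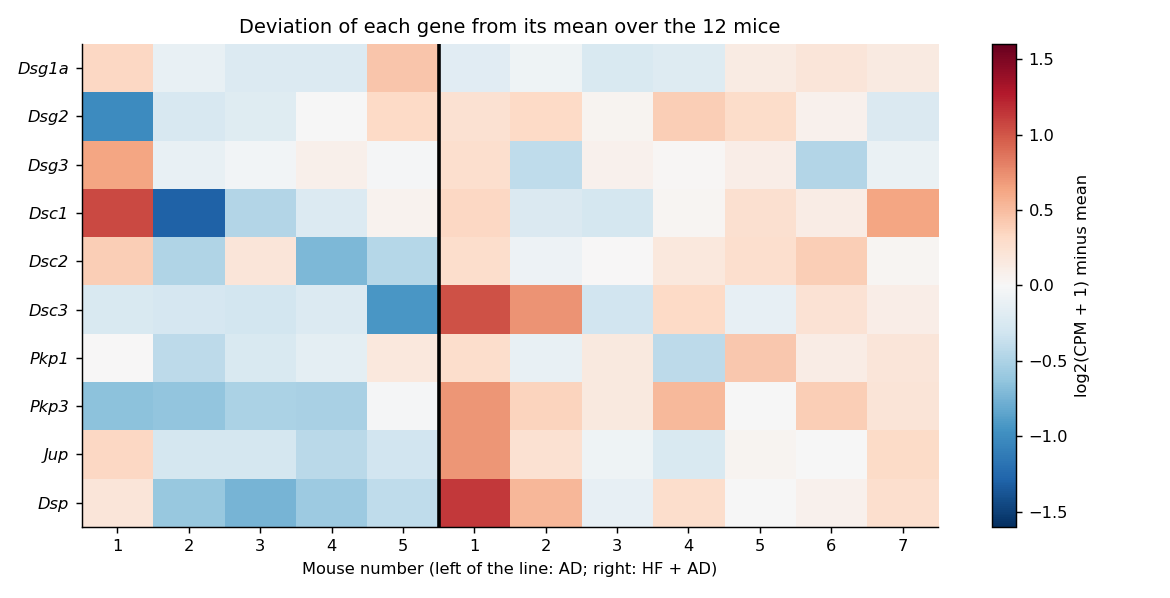
Deviation of each desmosome gene (rows) in each mouse (columns, AD left of the line and HF + AD right of it) from its mean over the 12 mice, in log2(CPM + 1) units. The rows of Pkp3 and Dsp are mostly blue (below the mean) on the left and red (above it) on the right, AD mouse 1 is red for Dsc1 and blue for Dsg2, and HF + AD mouse 1 is darkest for Dsp and Dsc3.

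Ratios of members within the same library compare isoforms and partners without regard to library scaling. The log2 ratio of Dsp to Jup was 1.84, 1.64, 1.51, 1.83 and 1.87 in AD mice 1 to 5, and 1.91 at the lowest, 2.06 at the median and 2.50 at the highest in the HF + AD mice. The groups did not overlap in this ratio, and the share of other gene pairs with such a separation was not determined. The difference of the means was 0.41 (exact permutation p = 0.00758, adjusted p = 0.0455 over 6 ratios), and the adjusted p exceeded the threshold without any of AD mice 1 to 5 or HF + AD mice 2, 6 or 7.

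The log2 ratio of Pkp1 to Pkp3 was 0.64, 0.19, 0.24, 0.34 and 0.17 in AD mice 1 to 5, and -0.96 at the lowest, -0.30 at the median and 0.41 at the highest in the HF + AD mice. It lay below all AD mice in 6 of 7 HF + AD mice, and the difference of -0.58 had an exact permutation p of 0.0189 (adjusted p = 0.0568 over 6 ratios). The summed desmogleins against the summed desmocollins differed by -0.47 (exact permutation p = 0.0467, adjusted p = 0.0934). The ratios of an upper-layer to a lower-layer isoform differed by less than the spread between mice: Dsg1a to Dsg3 by 0.10 (exact permutation p = 0.652) and Dsc1 to Dsc3 by -0.37 (exact permutation p = 0.399). Dsc2 to Dsc3 differed by -0.30 (exact permutation p = 0.318).

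**Figure D4:**
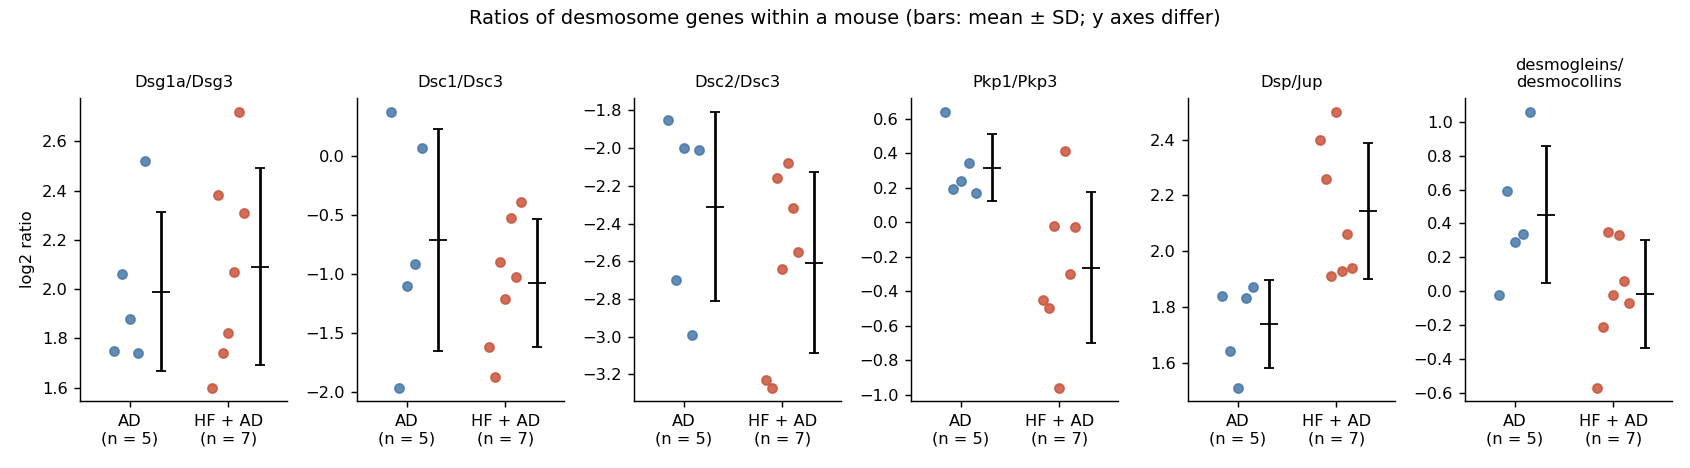
Log2 ratio of paired members within each mouse (vertical axes), for 5 AD mice (blue) and 7 HF + AD mice (red), with the mean ± SD beside the points. All 7 HF + AD mice lie above the AD mice for Dsp/Jup, and 6 of 7 lie below them for Pkp1/Pkp3.

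Other proteins of the desmosome and cornified envelope gave 1 call higher and 2 calls lower among 9 genes tested, with a median log2 fold change of 0.27. Perp, a tetraspan membrane protein needed for desmosome assembly in stratified epithelia, was lower in all 7 HF + AD mice (1495 to 2784 CPM) than in all AD mice (2844 to 3582 CPM). Its log2 fold change was -0.69 (SE 0.16, edgeR adjusted p = 0.0162), and edgeR called it in all 12 fits without 1 mouse. Ppl, the periplakin gene, whose protein joins desmoplakin and keratins to the cornified envelope, was lower as well, at 193 to 296 CPM against 284 to 431 CPM (log2 fold change -0.54, SE 0.15, edgeR adjusted p = 0.0314), and 5 of 7 HF + AD mice lay below all AD mice. The call for Ppl was lost in 6 of the 12 fits without 1 mouse, namely on omitting number 1, 3 or 5 of the AD group or number 1, 2 or 4 of the HF + AD group.

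Cdsn, which encodes corneodesmosin, the glue of desmosomes in the cornified layer, was called higher (log2 fold change 0.97, SE 0.30, edgeR adjusted p = 0.0497). Only 3 of the 7 HF + AD values exceeded every AD value, and the call was made in 7 of 20 alternative analyses, and without 1 mouse only where AD mouse 1 or AD mouse 5 was left out. Pkp4, a relative of the plakophilins, had a log2 fold change of 0.42 (SE 0.14, edgeR adjusted p = 0.0718), and Evpl, the envoplakin gene and partner of periplakin, one of 0.30 (SE 0.16, edgeR adjusted p = 0.249). Pkp2, the plakophilin of simple epithelia and heart, stood at -0.23 (SE 0.43, edgeR adjusted p = 0.791). Dsg1b, a near-identical copy of Dsg1a, stood at 0, 0.518, 0.707, 1.5 and 3.98 CPM in AD mice 1 to 5 and at 1.97 to 4.66 CPM in the HF + AD mice. Its means of log2(CPM + 1) differed by 1.03 (exact permutation p = 0.0164), but edgeR did not call it (log2 fold change 1.23, SE 0.83, adjusted p = 0.392). The Dsg1c copy (log2 fold change 0.27, SE 0.91, edgeR adjusted p = 0.896) and Dsg4, the desmoglein of hair (-0.68, SE 1.06, edgeR adjusted p = 0.742), were not called either.

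Keratins are the filaments to which desmoplakin attaches. Of 10 keratins tested, 3 were called higher and none lower: Krt5 (log2 fold change 0.81, SE 0.15, edgeR adjusted p = 0.00679), its partner Krt14 (1.05, SE 0.27, edgeR adjusted p = 0.0248), both of the basal layer, and Krt15 of basal and follicle bulge cells (1.21, SE 0.28, edgeR adjusted p = 0.0151). Krt5 and Krt14 together had 2779 to 4593 CPM in the AD mice and 5330 to 9673 CPM in the HF + AD mice, so that the groups did not overlap. The members were also expressed relative to Krt5 and Krt14 of the same library. Because the sum of these keratins differed by 0.86 on the log2 scale (exact permutation p = 0.00126), most genes were lower on this scale, and the values below describe the members against basal keratin rather than a change of their own.

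Relative to Krt5 and Krt14, all 10 members had a lower mean in the HF + AD mice, as did 89.7% of all genes tested, whereas 8 of 10 members (63.8% of all genes) had a higher mean relative to the upper-layer keratins Krt1 and Krt10, and 9 of 10 (69.4% of all genes) relative to the adherens junction genes Cdh1 and Ctnnd1. The direction thus depended on the reference. An exact permutation p under 0.05 relative to Krt5 and Krt14 was reached by 4 members (Dsg3, Dsg1a, Pkp1 and Jup), all lower, and by 53.1% of all genes in that direction. In Dsg3 (difference -1.04), Dsg1a (-0.94) and Pkp1 (-0.64) the groups did not overlap on this scale, which held for 22.2% of all genes. The share of members was thus no larger than the share of all genes for the test, and close to it for the lack of overlap. Pkp3 differed by -0.06 (exact permutation p = 0.720), Dsp by -0.12 (exact permutation p = 0.494) and Dsc3 by -0.19 (exact permutation p = 0.477), so that for the members called higher no difference from the change of Krt5 and Krt14 was detected. In the sum of Cdh1 and Ctnnd1, Ctnnd1 was itself called higher. Cdh1, which had the larger CPM, was lower without a call (log2 fold change -0.44, edgeR adjusted p = 0.0504). Their sum differed by -0.15 on the log2 scale (exact permutation p = 0.260), which raises the members on this scale. Relative to this sum, 6 members were higher at an exact permutation p under 0.05, against 22.1% of all genes. These were Pkp3 and Dsp (exact permutation p = 0.00126 for both), Dsc3 (exact permutation p = 0.00631), Jup (exact permutation p = 0.0114), Dsc2 (exact permutation p = 0.0328) and Dsg2 (exact permutation p = 0.0366).

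**Figure D5:**
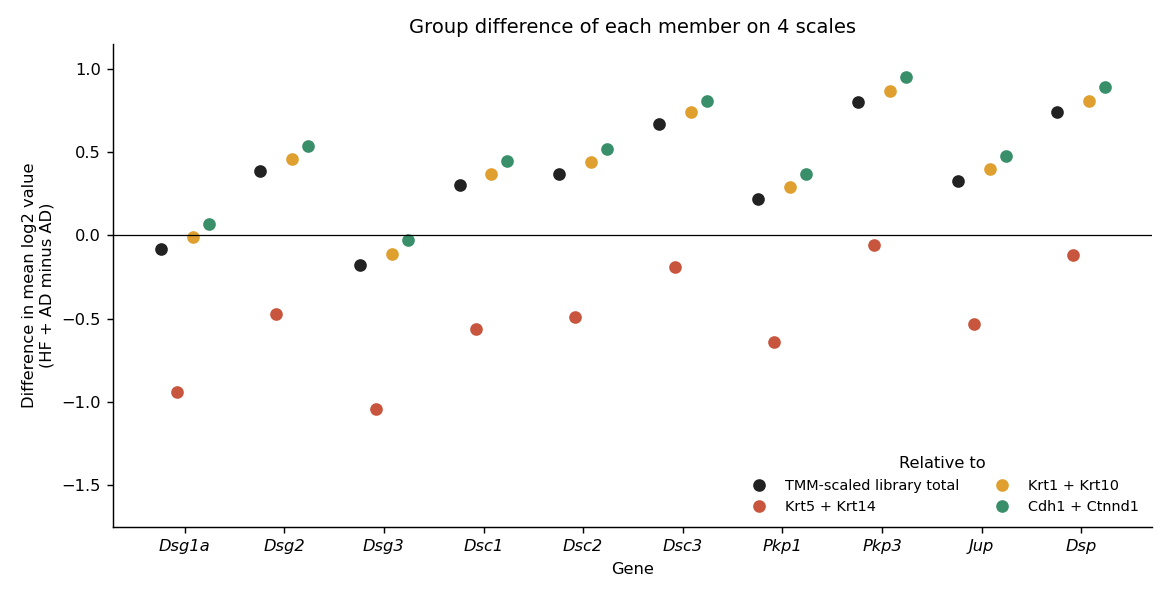
Difference in the mean log2 value of each desmosome gene, HF + AD minus AD, relative to the TMM-scaled library total (black), to Krt5 + Krt14 (red), to Krt1 + Krt10 (yellow) and to Cdh1 + Ctnnd1 (green). All red points lie below 0, where 89.7% of all genes tested also lie on that scale.

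The neighbouring junction list and the protease list held calls in both directions, and the transcription factor list held 1 call. Among 7 genes of the adherens junction, the neighbouring type of cell contact, Ctnnd1 (a catenin that binds the cadherin tail; log2 fold change 1.57, edgeR adjusted p = 0.00662) and Pvrl4 (nectin-4; 1.40, edgeR adjusted p = 0.00125) were called higher, Ctnna1 (alpha-catenin; -0.45, edgeR adjusted p = 0.0443) was called lower, and the median was -0.08. Of 11 tested genes for the proteases that cut desmosomes in the cornified layer and their inhibitors, Ctsd (cathepsin D; 0.67, edgeR adjusted p = 0.0405) was called higher and Klk7 (kallikrein 7; -0.76, edgeR adjusted p = 0.0498) lower, with a median of 0.10. Of these calls, Klk7 was made in 6, Ctnna1 in 8 and Ctsd in 10 of 20 alternative analyses. Of 12 epidermal transcription factors only Ovol1 (0.62, edgeR adjusted p = 0.0232) was called, and it was higher. The median of this list was -0.21, and 8 of the 12 had a negative log2 fold change.

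Markers of cell types moved with the desmosome genes in part. The basal keratinocyte markers summed to 3531 to 5286 CPM in the AD mice and 6168 to 10862 CPM in the HF + AD mice, and 3 of 6 (Krt5, Krt14 and Krt15) were called higher. Of these sums, Krt5 and Krt14 made up 2779 to 4593 CPM and 5330 to 9673 CPM. The basal markers Col17a1 (log2 fold change 0.00, edgeR adjusted p = 0.998), Itga6 (0.14, adjusted p = 0.564) and Itgb4 (0.39, adjusted p = 0.236) were not called. The CPM ranges in brackets below are likewise sums over all genes of a list. None of 7 suprabasal markers was called (570 to 2686 against 639 to 1933 CPM), nor any of 7 markers of hyperproliferative epidermis (7187 to 24216 against 7197 to 18463 CPM). Follicle markers, whose cells also build desmosomes, were called higher for 3 of 9 hair shaft genes (Krt31, Krt34 and Krt86; 2577 to 5276 against 3979 to 6584 CPM), 3 of 9 inner root sheath genes (Krt26, Krt27 and Krt71; 7572 to 12227 against 9076 to 12938 CPM) and 1 of 7 hair matrix genes (Foxn1; 557 to 1115 against 842 to 1213 CPM). No marker measured here was at 0 in all 12 libraries. The part of these cell types in the differences of Pkp3, Dsp and Dsc3 was not tested.

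The other cell type lists gave scattered calls. The CPM ranges in brackets are sums over all genes of the list, AD before HF + AD, and not levels of the genes named. Endothelial Cdh5 and Kdr were higher (2 of 6, 22.9 to 66.3 against 33.6 to 82.2 CPM). Of these 6 markers 4 had positive log2 fold changes, while Tek (-0.36) and Emcn (-0.21) were lower without a call. Among 4 neutrophil markers only Mmp9 was called, and it was higher (97.1 to 2408 against 73.2 to 571 CPM). Cxcr2 (2.02) and Retnlg (2.37) were higher without a call, and S100a8 lower without a call (-1.53, edgeR adjusted p = 0.181). S100a8 had 95.4 to 2405 CPM in the AD mice and 64.0 to 300 CPM in the HF + AD mice. Mmp9 itself had 0 to 3.03 CPM in the AD mice and 6.44 to 259 CPM in the HF + AD mice. The muscle gene Acta1 (1 of 7, 789 to 1834 against 498 to 1212 CPM) and the melanocyte genes Pmel and Dct (2 of 6, 1838 to 2861 against 929 to 1992 CPM) were lower. Acta1 itself had 475 to 882 CPM in the AD mice and 286 to 669 CPM in the HF + AD mice. Of 6 sebocyte markers, Awat1 was higher and Scd1 lower (2077 to 3399 against 1571 to 2611 CPM). No marker was called among 6 of fibroblasts (3286 to 9893 against 3296 to 10287 CPM), 5 of adipocytes (97.5 to 711 against 70.2 to 549 CPM), 6 of macrophages and dendritic cells (66.4 to 277 against 94.8 to 295 CPM), 3 of T cells (1.01 to 16.4 against 1.91 to 6.54 CPM) and 6 of mast cells (104 to 228 against 102 to 291 CPM).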

How the data were processed

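Skin RNA of 5 AD and 7 HF + AD (labelled AD+OB) mice had been sequenced with a kit for the 3′ ends of mRNA. The values deposited by the authors are raw read counts by gene symbol, without normalization. Their processing notes name Bowtie2, bedtools and the build mm10. Versions and strand setting are not given in the sources used here, and no molecular identifiers are described, so that precision from depth covers counting error only. Of 23282 entries, 35 symbols were listed more than once and 4677 entries had no count in any mouse. A count of 0 allows 3 counts, or 0.223 to 0.308 CPM.

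Groups were compared with edgeR 4.0.16 in R 4.3.3 (TMM, filterByExpr, quasi-likelihood test, no covariate, p adjusted by Benjamini–Hochberg for 14163 genes and called under 0.05). CPM used TMM-scaled totals, and single genes and ratios were compared as log2 of CPM plus a pseudocount of 1 by an exact permutation test (two-sided, 792 splits into 5 and 7 mice). Each mouse was treated as a replicate, so that p-values measure the spread between these mice. Alternatives used limma 3.58.1, DESeq2 1.42.0, DESeq2's size factors, library totals, other count filters, a pseudocount of 0.1, a rank statistic, the replicate number as a term and each mouse left out. For each gene 20 such analyses of the fit were made. The GC correction (20 bins, transcripts of GENCODE M21, 96.2% of tested genes), and all alternatives for the other desmosomal genes except the scalings, were chosen after seeing the data. So were the shares of all genes on the scales of Krt5 and Krt14, Krt1 and Krt10, and Cdh1 and Ctnnd1.

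The members, the gene lists (9 other desmosomal genes, keratins, cornified-layer proteases, transcription factors, adherens junction and 16 cell type lists) and the tests were chosen with earlier results of these data known. Genes named are all members and other desmosomal genes, and in the other lists those past the threshold, up to 4 per cell type. Lists are described by counts and medians, without a set test. Nectin-4 is listed under its older symbol Pvrl4. Other steps used Python 3.11.15, NumPy 2.4.6, SciPy 1.17.1, pandas 2.3.3 and matplotlib 3.10.9. The fit was tested on simulated counts with known changes. Promoters came from RefSeq (GRCm38.p6), which covered 2 of the 10 members in the table used here.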

Additional observations from a re-analysis of the deposited data

Results flagged for a closer look

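Of 50 sets of values (each gene or ratio in each group), 4 held a mouse that stood apart from the rest of its group by Dixon's criterion at the 95% level, which chance alone meets in about 1 of 20 groups. All 4 were AD mice. For Dsg3, AD mouse 1 had a log2(CPM + 1) of 6.03, while the other AD mice had 5.27 to 5.47. For Jup, the same mouse had 8.60 and the others 7.84 to 8.0. For Dsc3, AD mouse 5 had 6.30 and the others 6.94 to 7.01. For Pkp3, AD mouse 5 had 8.34 and the others 7.70 to 7.85. Without AD mouse 5 the log2 fold change of Dsc3 and that of Pkp3 stayed positive. Pkp3 stayed past the threshold in edgeR, but Dsc3 did not. Dsg3 and Jup were not called in edgeR with or without AD mouse 1. Both mice had been kept in every comparison.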

How the results depend on the processing

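Members called numbered 3 under every other normalization, filter and test tried and 2 with the GC correction. Leaving out 1 mouse gave 1 to 3 members called, with Pkp3 called in all 12 of these fits, 639 to 1461 genes called in all (803 without AD mouse 2, and 686, 639 and 794 without HF + AD mouse 1, 2 and 4), and 1 to 3 other desmosomal genes. With a test of each gene by exact permutation, 3 members had a p under 0.05, and 5 did on library totals alone. With 1 mouse left out the number was 3 to 6, the 6 being without AD mouse 1. The share of all genes at this exact p was not determined, so these counts are not a result about the members. On library totals the median log2 fold change over all genes tested was 0.07 rather than 0.02. For the ratios, 0 to 3 instead of 1 passed the adjusted threshold with 1 mouse left out. Relative to Krt5 and Krt14, 4 members (4 to 5 without 1 mouse) were lower at an exact p under 0.05. The same held for 53.1% of all genes. Relative to Krt1 and Krt10 the number was 0, where 0.41% of all genes were higher and 0.0918% lower at that p. The sum of Krt1 and Krt10 ran from 76 to 737 CPM among the AD mice. Relative to Cdh1 and Ctnnd1, 6 members were higher at that p, against 22.1% of all genes.

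Relative to Krt5 and Krt14, whose sum was itself higher by 0.86 on the log2 scale, all 10 members had a lower mean. Most of these signs changed on other references. Relative to Cdh1 and Ctnnd1 and to Krt1 and Krt10, the differences were 0.54 and 0.46 for Dsg2, 0.45 and 0.37 for Dsc1, 0.52 and 0.44 for Dsc2, 0.81 and 0.74 for Dsc3, 0.37 and 0.29 for Pkp1, 0.95 and 0.87 for Pkp3, 0.48 and 0.40 for Jup, and 0.89 and 0.81 for Dsp. All of these genes were also higher on TMM-scaled CPM, so that their sign there was the same. The difference of Dsg1a was -0.08 on TMM-scaled CPM and 0.071 relative to Cdh1 and Ctnnd1. The log2 fold change of Dsg4 was 0.30 in limma-trend and 0.19 with the replicate block, and that of Pkp2 was 0.11 in both. With 1 mouse left out, the log2 fold change ran from -0.165 to 0.028 for Dsg1a, from -0.077 to 0.561 for Dsc1, from -0.058 to 1.211 for Dsg1c, from -1.17 to 0.40 for Dsg4 and from -0.49 to 0.17 for Pkp2. The difference of Dsg1a in log2(CPM + 1) ran from -0.145 to 0.023, that of the Dsg1a/Dsg3 ratio from -0.003 to 0.233 and that of Pkp3 relative to Krt5 and Krt14 from -0.16 to 0.02. The cause of these changes was not tested.

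The replicate numbers 1 to 5 are shared by the groups, but same-numbered mice did not deviate together (correlations across genes of 0.03, -0.03, -0.08, 0.04 and 0.00), so the numbers do not pair the mice. With the replicate block, 192 genes were called, with 1 member (Dsp) and 0 other desmosomal genes among them. Pkp3 then had a log2 fold change of 0.82 (edgeR adjusted p = 0.0585) and Dsc3 one of 0.72 (edgeR adjusted p = 0.0780).

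Calls of Dsc3, Dsp, Ppl, Cdsn, Klk7, Ctnna1 and Ctsd lay near the threshold, and 5 AD mice limit the precision of all values. Dsg1b, Dsg1c and Dsg4 had medians of at most 3.26 CPM and standard errors of 0.83 to 1.06 on the log2 scale.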
